A study of Mus musculus with 34 samples.

Results

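CAD cells labelled mir-138 DKO were compared 1 day after serum was removed and in 10% serum, across all genes measured by polyA RNA-seq. The comparison uses 4 of the 34 libraries of the series, chosen by their titles: 2 libraries of DKO-labelled cells at 1 day and 2 of DKO-labelled cells in serum. CAD cells are a mouse catecholaminergic neuroblastoma line, and DKO stands for a double knockout of mir-138, whose mature miRNA is made from the hairpin genes Mir138-1 and Mir138-2. WT CAD cells at 1 day and in serum, 2 libraries each, were prepared in the same experiment and are set beside the DKO-labelled cells. DKO-labelled cells transfected with pUC19 DNA, at 2 days without serum and in serum, 2 libraries each, come from another experiment of the series and are set beside them without a test across experiments. The pUC19 cells were transfected 48 h before serum was removed and were read with 50 bp single-end reads, whereas the first experiment used 75 bp paired-end reads. All groups grew in DMEM/F12 medium, and serum was withdrawn by a change of medium. Whether the cells labelled DKO are 1 clone or several is not given in the sources used here.

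Serum carries growth factors, hormones, iron-bound transferrin and lipoproteins, so its removal takes away mitogens, bone morphogenetic protein (BMP) activity and a source of cholesterol at the same time. Cells that sense falling sterol in the endoplasmic reticulum release the transcription factor SREBP2, which turns on cholesterol synthesis genes. Loss of insulin-like signals lets FoxO factors enter the nucleus, and loss of mitogens stops the entry into S phase. In CAD cells serum removal is used to stop division and start the growth of neuron-like processes.

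The label DKO was set against the targeted loci first. The mature miRNA that the label refers to is printed with its seed, bases 2 to 8, in capitals, as RefSeq gives it on GRCm38.p6 at chr9:122682898-122682920 for Mir138-1, plus strand, with an identical copy from Mir138-2.
miR-138-5p: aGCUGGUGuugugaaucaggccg
Mir138-1 had 273 and 343 reads in the DKO-labelled libraries at 1 day and 242 and 217 reads in those in serum. In WT libraries it had 15 and 37 reads at 1 day and 18 and 18 reads in serum. Mir138-2 had 0 reads in all 8 libraries. The reads over Mir138-1 therefore go against a plain loss of that locus, and cells and libraries are called DKO-labelled throughout. PolyA reads over a hairpin gene do not measure the mature miRNA, and where the deletion lies is not given in the sources used here. Within the DKO-labelled cells Mir138-1 stood at 9.26 and 10.9 CPM (reads per 1e6 assigned reads, scaled by TMM) at 1 day and at 5.93 and 7.73 CPM in serum. That log2 fold change of 0.56 ± 0.26 (SE) did not pass edgeR's quasi-likelihood test (Benjamini-Hochberg adjusted p = 0.103), and without DKO serum replicate 2 it stood at 0.78 and passed (adjusted p = 0.0382).

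Reads assigned to genes numbered 28887304 and 31112826 in the DKO-labelled libraries at 1 day and 41505181 and 28718088 in those in serum. Unmapped reads made up 8.65 and 6.41% of the reads at 1 day, against 5.79 and 5.55% in serum, and mitochondrially encoded genes took 1.57 and 1.96% of assigned reads, against 0.835 and 1.19%. The DKO-labelled libraries in serum differed more from each other than those of any other group in the experiment, with a chi-square per degree of freedom over genes of 25.3, against 5.56 to 7.12. The part of these differences in the results was not tested, but results that rest on 1 library are named where they occur. Whether the 2 libraries of a group came from different cultures is not stated, so p-values reflect the variation between these libraries, which may be technical. In bulk RNA, fewer cells of a kind and less of an RNA per cell cannot be told apart.

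Removing serum for 1 day changed 5497 of the 13630 genes tested in DKO-labelled cells (40.3%) at a false discovery rate of 0.05, so a single call is common in this comparison. Of these, 2715 genes were higher at 1 day (19.9%) and 2782 were lower (20.4%). The median log2 fold change over all genes tested was 0.01. Changes of at least 2-fold were found for 795 of the higher genes and 189 of the lower ones, and 9022 genes (66.2%) had groups that did not overlap. In WT cells 5546 of the same 13630 genes were called (40.7%), with 2781 higher at 1 day (20.4%) and 2765 lower (20.3%). Of the genes higher in DKO-labelled cells, 1652 were also called higher in WT cells, which is 60.8% of the DKO calls and 59.4% of the WT calls, and 69 were called lower there. Of the lower genes, 1838 were shared, 66.1% of the DKO calls and 66.5% of the WT calls, and 72 went the other way.

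The largest rises included genes of calcium handling, lipid storage and glycolysis. Atp2a3, which encodes the calcium pump SERCA3 of the endoplasmic reticulum, stood at 5.67 and 5.10 CPM at 1 day and at 0.0735 and 0.0356 CPM in serum, a log2 fold change of 6.44 ± 0.89 that rests on 4 reads in the serum libraries together. Fam57b had 23.8 and 22.6 CPM at 1 day, against 0.221 and 0.677 CPM in serum (5.81 ± 0.24, adjusted p = 6.03e-10). Kbtbd11 reached 80.6 and 69.4 CPM at 1 day, against 2.30 and 2.28 CPM in serum (5.03 ± 0.20). The largest rises and falls were picked among genes whose groups do not overlap, so that separation was set by the choice. Of the other 9 of the 12 largest rises, those reported here had log2 fold changes of 4.88 for Bglap3, 4.76 for Trim66, 4.24 for the lipid droplet protein gene Pnpla3, 3.92 for Ndrg1, 3.82 for Aldoc, 3.80 for Pdk1, 3.70 for Ccdc177 and 3.64 for the stress-induced chromatin protein gene Nupr1. The 12 largest falls were led by the Id genes described below. They also held Nsg2, which encodes a vesicle protein of neurons and had 5.77 and 5.89 CPM at 1 day, against 57.7 and 73.1 CPM in serum (-3.48 ± 0.14, adjusted p = 4.57e-10). Fstl3, a secreted inhibitor of activin, fell by 2.57 on the log2 scale, as did the transcription factor gene Tbx3. Ung, which encodes a uracil-removing DNA repair enzyme, fell by 2.31, the insulin receptor adaptor gene Grb10 by 2.35, Tlx2 by 2.05, Gpbar1 by 2.51 and Myo18b by 2.97.

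**Figure D1:**
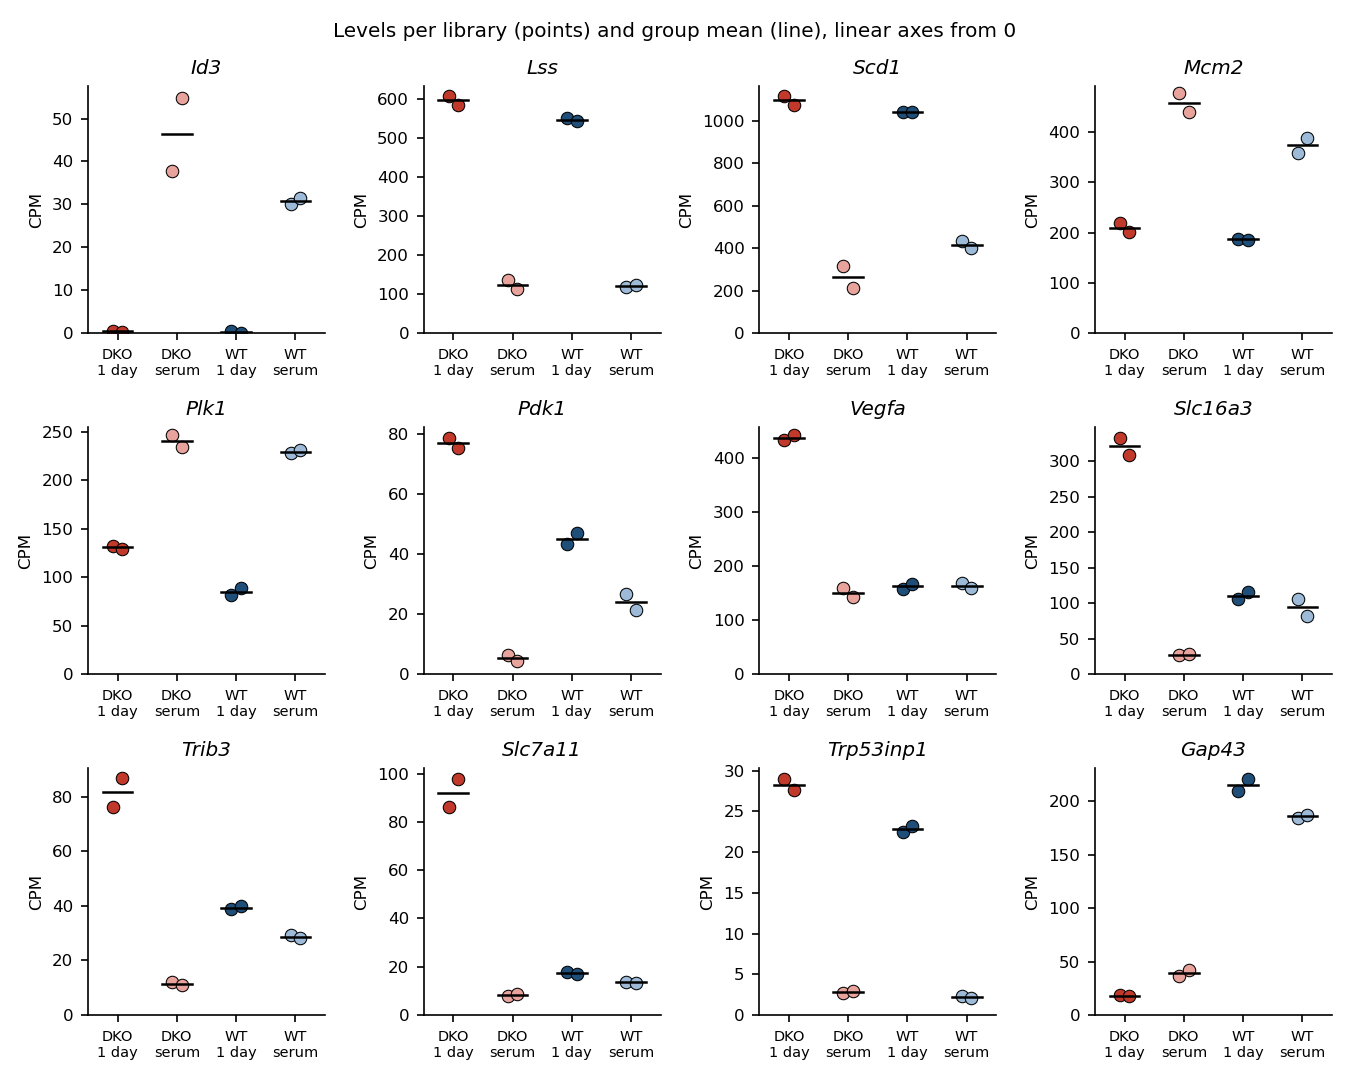
Levels in CPM, TMM-scaled, of 12 genes in the 8 libraries of the first experiment, on linear axes from 0; points are libraries and lines are means of the 2 libraries of a group. In DKO-labelled cells Id3, Mcm2, Plk1 and Gap43 lie lower at 1 day than in serum and the other 8 genes higher, with no overlap between the 2 groups.

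Cholesterol synthesis and uptake genes rose together in DKO-labelled cells. All 23 measured members of the list of 24 were called higher at 1 day, with a median log2 fold change of 1.42 beside 0.01 over all genes, and Hmgcs1 was not measured here. The summed level of the list was 7165 and 6997 CPM at 1 day and 3078 and 2802 CPM in serum. Lss, which closes the sterol rings, had 609 and 585 CPM at 1 day, against 136 and 112 CPM in serum (2.27 ± 0.08, adjusted p = 2.04e-10). Tm7sf2, a sterol reductase, had 78.6 and 76.1 CPM at 1 day, against 11.5 and 9.19 CPM in serum (2.90 ± 0.12). For both genes every library at 1 day lay above every library in serum. Cyp51, the sterol demethylase, rose by 1.80, Pmvk, a kinase of the mevalonate pathway, by 1.96 and Insig1, the sterol-controlled brake on SREBP processing, by 2.03.

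Fatty acid synthesis genes followed, with 13 of 14 measured members called higher, none lower, and a median log2 fold change of 0.75. Scd1, which makes monounsaturated fatty acids, had 1120 and 1075 CPM at 1 day, against 318 and 214 CPM in serum (2.05 ± 0.13, adjusted p = 3.57e-08). Its relative Scd2 had 3948 and 3984 CPM at 1 day, against 1596 and 1208 CPM in serum (1.50 ± 0.09). Acss2, which turns acetate into acetyl-CoA, rose by 1.88, the desaturase gene Fads1 by 1.04, the elongase gene Elovl6 by 0.78 and Acly, which makes acetyl-CoA from citrate, by 0.71. Acaca, which encodes an acetyl-CoA carboxylase, is the member that was not called. The sterol regulatory element TCACNCCAC was searched on both strands of RefSeq promoters (250 bases before to 50 after the start, GRCm38.p6). It was in none of the 15 cholesterol list members with a promoter in the table, and in 1.4% of the 9869 tested genes with one. This says only that those letters are not in these windows.

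Targets of BMP and TGF-beta signalling fell. These pathways act through SMAD transcription factors, and Id genes, among their most direct targets, encode helix-loop-helix proteins that block differentiation factors. Of 15 measured members of the list of 19, 13 were called lower at 1 day, none was called higher, and the median log2 fold change was -0.94. Id3 had 0.577 and 0.317 CPM at 1 day, against 37.8 and 54.9 CPM in serum (-6.69 ± 0.35, adjusted p = 8.56e-09). Id2 had 1.53 and 2.12 CPM at 1 day, against 16.8 and 33.5 CPM in serum (-3.77 ± 0.32), and Id1 had 6.96 and 5.13 CPM, against 39.5 and 57.4 CPM (-3.00 ± 0.19). Every library at 1 day lay below every library in serum, although the serum libraries of Id2 lay well apart. Atoh8, a BMP-responsive transcription factor gene, fell by 2.43, and the inhibitors of the pathway Skil and Smad7 fell by 0.94 and 0.88. Ski and Tgfb1i1 were the members not called.

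Replication genes fell with them. Of 34 measured members of the replication list, 31 were called lower and none higher, with a median log2 fold change of -0.53. Mcm2 to Mcm6 encode subunits of the helicase that opens DNA at origins. Mcm2 had 218 and 202 CPM at 1 day, against 478 and 441 CPM in serum (-1.13 ± 0.07, adjusted p = 2.95e-08), and Mcm4 had 236 and 207 CPM, against 438 and 463 CPM (-1.03 ± 0.07). Mcm5 fell by 0.98, Lig1, the replicative DNA ligase, by 0.91, Mcm6 by 0.87 and Mcm3 by 0.63. Each of these falls was close to or below 2-fold, and the libraries of the 2 groups did not overlap. The E2F site TTTGGCGC was in 5 of 27 replication promoters (18.5%) and in 1.12% of tested genes with a promoter. The other form, TTTCCCGC, was in 6 of 27 (22.2%) and in 2.42%.

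Mitosis genes were also lower, with 23 of 25 called lower, none higher, and a median of -0.47. Plk1, a kinase that drives entry into and exit from mitosis, had 132 and 130 CPM at 1 day, against 247 and 235 CPM in serum (-0.88 ± 0.07, adjusted p = 2.97e-07). Nek2, a centrosome kinase, fell by 0.89, Ube2c, a ubiquitin-conjugating enzyme of the anaphase-promoting complex, by 0.86, Ccnb1 (cyclin B1) by 0.73, Aurka by 0.73 and Bub1b, of the spindle checkpoint, by 0.72. Mki67, which encodes the proliferation marker Ki-67, had 539 and 558 CPM at 1 day, against 821 and 641 CPM in serum (-0.41 ± 0.09). Its libraries did not overlap, although the serum libraries lay well apart. The cell cycle homology region TTTGAA, through which the DREAM complex holds mitotic genes down outside the cycle, was in 15 of 21 mitosis promoters (71.4%) and in 13.8% of tested genes with a promoter. Of these promoters, 2 are printed from 50 bases before the motif to the last base before the annotated start, with the motif in capitals (on the other strand in Ube2c).
Ube2c, chr2:164769850-164769928, plus strand: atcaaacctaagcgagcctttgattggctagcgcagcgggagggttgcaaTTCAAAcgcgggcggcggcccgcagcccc
Cdc20, chr4:118437344-118437411, minus strand: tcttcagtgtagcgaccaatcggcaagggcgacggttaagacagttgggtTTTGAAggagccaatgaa
The motif starts 29 bases before the annotated start of Ube2c and 18 before that of Cdc20, whose product activates the anaphase-promoting complex. Cdc20 had 56.1 and 57.4 CPM at 1 day, against 97.1 and 102 CPM in serum (-0.81 ± 0.09).

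Regulators of the G1 phase were called lower more often than higher, beside 20.4% lower and 19.9% higher over all genes tested. Of 23 measured members 11 were called lower and 3 higher, and leaving out DKO 1 day replicate 2 reduced the 11 to 7. Ccnd1 (cyclin D1), which mitogens induce, had 222 and 200 CPM at 1 day, against 301 and 285 CPM in serum (-0.47 ± 0.07), and E2f1, E2f4 and E2f8 fell by 0.63, 0.50 and 0.43. The inhibitors Cdkn1a (p21) and Cdkn1b (p27) rose. Cdkn1a had 28.6 and 29.7 CPM at 1 day, against 14.1 and 16.8 CPM in serum (0.92 ± 0.13, adjusted p = 5.21e-05), and Cdkn1b had 162 and 175 CPM, against 121 and 132 CPM (0.41 ± 0.07). Of 21 measured members of a list of Myc family genes and Myc-linked growth genes, most of them of ribosome biogenesis, 19 were called lower and 1 higher, with a median log2 fold change of -0.48. Bop1, Ddx21 and Ncl, which act in the making of ribosomal RNA, fell by 0.86, 0.69 and 0.65. Odc1, the polyamine enzyme, fell by 0.74, Rrp9 by 0.78 and the nucleolar methyltransferase gene Fbl by 0.67. Mycn, a relative of Myc, had 59.5 and 45.9 CPM at 1 day, against 96.3 and 108 CPM in serum (-0.95 ± 0.11), and its response differed from that in WT cells by -0.90 ± 0.15 (adjusted p = 0.0016). Myc itself was the member called higher, with 385 and 394 CPM at 1 day, against 269 and 249 CPM in serum (0.59 ± 0.06, adjusted p = 5.13e-06), and without DKO serum replicate 1 the members called higher were 2.

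FoxO targets rose. FoxO factors are kept out of the nucleus by insulin and PI3K signalling, and of 18 measured members 15 were called higher, none lower, with a median of 0.84. Bnip3, a mitophagy receptor gene, had 188 and 184 CPM at 1 day, against 27.6 and 25.6 CPM in serum (2.80 ± 0.09, adjusted p = 1.33e-10). Txnip, an inhibitor of glucose uptake, had 20.9 and 25.6 CPM at 1 day, against 6.79 and 4.09 CPM in serum (2.08 ± 0.22). The cyclin G2 gene Ccng2 rose by 1.94, Pik3ip1, an inhibitor of PI3K, by 1.19, Foxo3 by 0.90 and the insulin receptor gene Insr by 0.90. None of these genes had overlapping groups. In WT cells the list had 12 members higher and none lower, with a median of 0.77. A higher response in DKO-labelled cells than in WT cells was called for Bnip3 alone, and a lower one for 2 members. These counts of differences changed with the filter on low counts or with single libraries. Targets of p53 were mixed, with 8 of 15 measured members higher and 3 lower, beside 19.9% higher and 20.4% lower over all genes tested. Trp53inp1, a stress-induced autophagy gene, had 29.0 and 27.6 CPM at 1 day, against 2.67 and 2.92 CPM in serum (3.34 ± 0.16). Gdf15, Sesn2, Btg2 and Bbc3 rose by 2.37, 1.52, 1.44 and 1.40, while Aen, a p53-induced nuclease, fell by 0.95. Several members belong to more than 1 list, Sesn2 to the p53 and ATF4 lists and Btg2 to the p53 and immediate early lists among them.

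**Figure D2:**
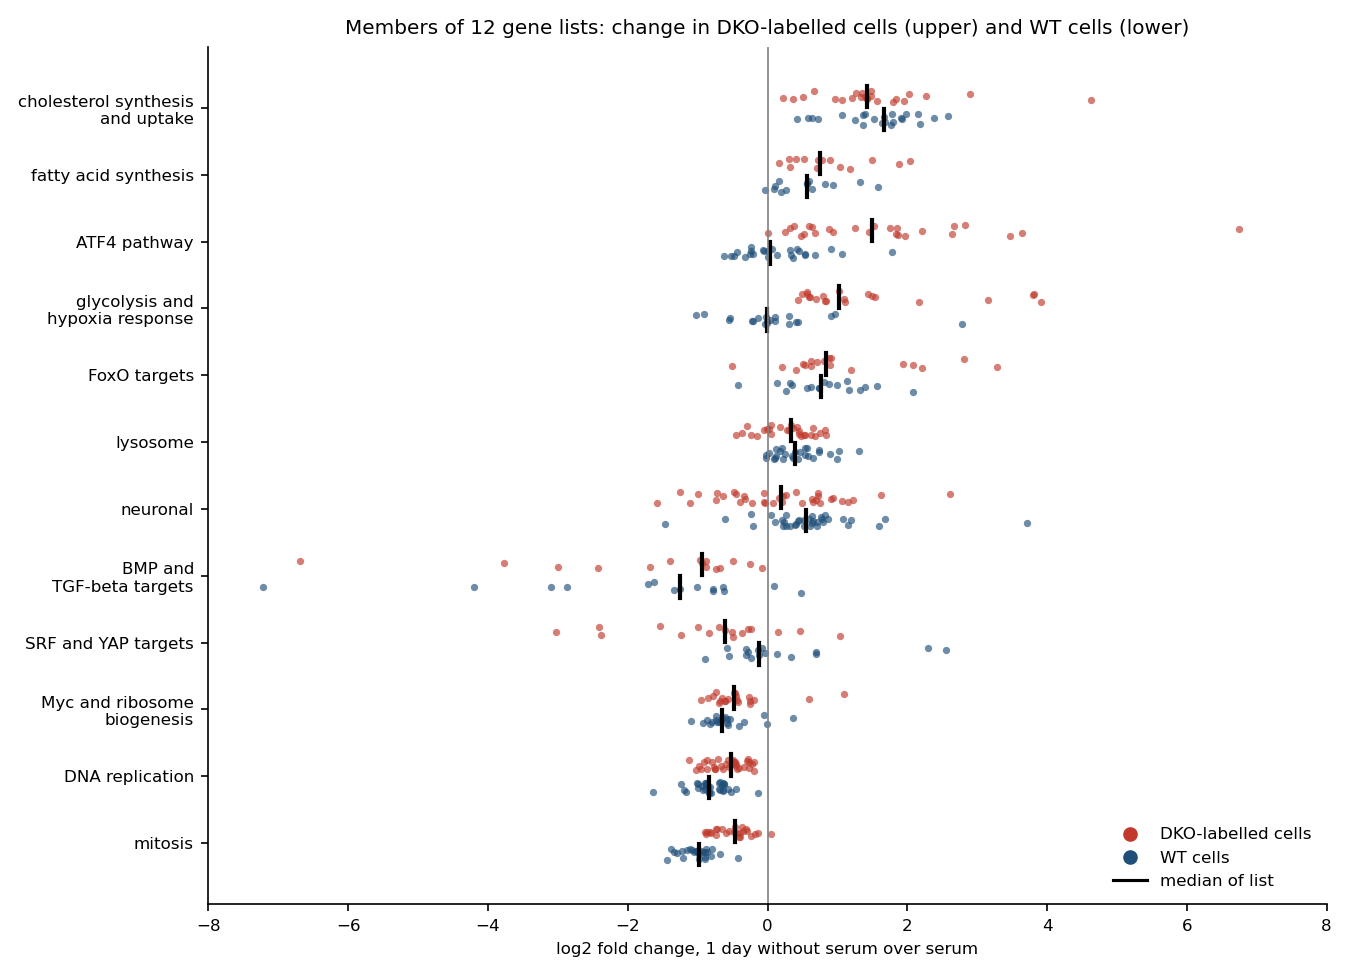
Log2 fold changes, 1 day over serum, of the measured members of 12 gene lists, for DKO-labelled cells (upper row of each list) and WT cells (lower row); each point is a gene and each bar the median of the list. In DKO-labelled cells the ATF4 and glycolysis lists lie almost wholly to the right of 0, with medians of 1.49 and 1.02, while in WT cells the same lists are centred on 0, with medians of 0.04 and -0.01.

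Glycolysis and hypoxia-response genes rose in DKO-labelled cells without exception. HIF transcription factors, stabilised when oxygen is low and also raised by growth signals, drive glucose uptake, glycolysis and blood vessel growth factors. All 21 measured members of the list of 22 were called higher at 1 day, with a median log2 fold change of 1.02. Pdk1, which closes the route of pyruvate into mitochondria, had 78.6 and 75.2 CPM at 1 day, against 6.45 and 4.38 CPM in serum (3.80 ± 0.16, adjusted p = 7.37e-10). Aldoc, an aldolase, had 132 and 131 CPM at 1 day, against 10.1 and 8.40 CPM in serum (3.82 ± 0.12). Vegfa, the blood vessel growth factor, had 434 and 443 CPM at 1 day, against 160 and 143 CPM in serum (1.54 ± 0.07). Libraries at 1 day lay above those in serum for all 21 members. The phosphofructokinase gene Pfkl rose by 1.50, Pgk1 by 1.44 and Aldoa by 1.02. Outside the list, Slc16a3, which encodes the lactate exporter MCT4, had 333 and 309 CPM at 1 day, against 26.4 and 27.9 CPM in serum (3.57 ± 0.11), and the triose phosphate isomerase gene Tpi1 had 1168 and 1150 CPM, against 388 and 400 CPM (1.56 ± 0.05). The counts leave out reads with more than 1 place in the genome, so genes with near-identical copies, such as Pgk1, Aldoa, Gapdh, Tpi1, Ldha, Eno1, Actb and Actg1, are less certain in level.

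The core of the hypoxia response element, ACGTG, was in 14 of 19 promoters of this list (73.7%) and in 29.3% of tested genes with a promoter. The motif was chosen after the values were seen, is short, and lies within the E-box CACGTG. Promoters of Pgk1, the glucose transporter gene Slc2a1 and the HIF target Ankrd37 are printed around the motif, in capitals on either strand. The stretches of Slc2a1 and Ankrd37 run from 50 bases before the motif to the last base before the annotated start, and that of Pgk1 covers 50 bases on each side of the motif nearest to the start.
Pgk1, chrX:106186919-106187023, plus strand: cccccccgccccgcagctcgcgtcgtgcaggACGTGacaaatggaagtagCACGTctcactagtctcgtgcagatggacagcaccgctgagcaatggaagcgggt
Slc2a1, chr4:119108659-119108744, plus strand: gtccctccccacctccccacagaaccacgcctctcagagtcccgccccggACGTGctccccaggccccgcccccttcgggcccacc
Ankrd37, chr8:45999851-45999906, minus strand: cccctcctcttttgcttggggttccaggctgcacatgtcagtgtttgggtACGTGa
Pgk1 holds the letters once on each strand. Slc2a1 had 219 and 212 CPM at 1 day, against 96.9 and 103 CPM in serum (1.11 ± 0.07), and Ankrd37 had 22.9 and 20.1 CPM, against 4.22 and 5.41 CPM (2.17 ± 0.17). A match describes the sequence and is not a measured binding site.

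Genes of the ATF4 pathway rose as widely. ATF4 is the transcription factor of the integrated stress response, made when amino acids run short or proteins misfold, and its targets import and make amino acids and slow growth. Of 26 measured members of the list of 27, 24 were called higher at 1 day, none lower, with a median log2 fold change of 1.49. Slc7a11, the cystine importer, had 86.4 and 97.9 CPM at 1 day, against 7.87 and 8.90 CPM in serum (3.46 ± 0.12, adjusted p = 1.33e-10). Trib3, a pseudokinase that restrains the response, had 76.3 and 86.7 CPM at 1 day, against 11.9 and 11.0 CPM in serum (2.83 ± 0.11). Atf4 itself had 595 and 630 CPM at 1 day, against 333 and 332 CPM in serum (0.88 ± 0.06). The 2 DKO-labelled libraries at 1 day were the highest of the 8 libraries for all 3 genes. Atf5 and Ddit3 (CHOP), transcription factors of the pathway, rose by 2.64 and 2.67, the mitochondrial folate enzyme gene Aldh1l2 by 2.20, the mTOR inhibitor gene Ddit4 by 1.97 and the mitochondrial PEPCK gene Pck2 by 1.86. Asns, asparagine synthetase, had 545 and 559 CPM at 1 day, against 386 and 409 CPM in serum (0.47 ± 0.06). Stc2 had 123 reads at 1 day and 1 read in serum, a ratio of 139 with an exact 95% interval of 24.4 to 5520 that covers counting error alone. Phgdh, the first enzyme of serine synthesis (0.01 ± 0.06), and Cebpb (0.25) were not called. The letters TGATGNAAT, an ATF4 and C/EBP site, were in 1 of 22 promoters of the list and in 0.527% of tested genes with a promoter.

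The response of DKO-labelled cells was then tested against that of WT cells as a difference of the log2 fold changes, DKO minus WT. This difference was called for 1325 of 13630 genes (9.72%), 730 of them with a higher response in DKO-labelled cells (5.36%) and 595 with a lower one (4.37%). The count depends on single libraries. It stood at 699 and 691 without DKO 1 day replicate 1 and 2, at 2602 and 2292 without DKO serum replicate 1 and 2, at 638 and 660 without WT 1 day replicate 1 and 2, and at 695 and 615 without WT serum replicate 1 and 2. Read against that background, a higher response was called for 20 of 21 glycolysis members (19 to 21 over all alternatives) and for 25 of 26 ATF4 members (21 to 26). In WT cells the glycolysis list had 7 members higher and 5 lower, and the ATF4 list 11 higher and 8 lower.

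Vegfa had 159 and 168 CPM in WT cells at 1 day and 169 and 160 CPM in WT cells in serum, a log2 fold change of -0.01. The difference of responses was 1.54 ± 0.10 (adjusted p = 5.01e-07). Slc16a3 had 105 and 115 CPM in WT cells at 1 day and 106 and 81.8 CPM in serum, and its difference was 3.34 ± 0.15. Hk2, the inducible hexokinase gene, rose by 0.69 in DKO-labelled cells and fell by 0.91 in WT cells, which gave a difference of 1.60 ± 0.10. None of these 3 genes was called higher in WT cells. Slc7a11 differed by 3.10 ± 0.16, Trib3 by 2.38 ± 0.14, Bnip3 by 2.07 ± 0.13, the phosphofructokinase gene Pfkp by 1.32 ± 0.09 and Tpi1 by 1.32 ± 0.07. Fam57b differed by 5.83 ± 0.29, with WT levels of 42.7 and 41.0 CPM at 1 day and 42.6 and 42.4 CPM in serum, so its 1 day level in DKO-labelled cells stayed below that of WT cells. Kbtbd11 differed by 4.14 ± 0.25. For several of these genes the DKO-labelled cells started lower in serum than WT cells. Pdk1 stood at 6.45 and 4.38 CPM in DKO-labelled serum libraries, against 26.8 and 21.4 CPM in WT serum libraries, Slc16a3 at 26.4 and 27.9 CPM, against 106 and 81.8 CPM, and Trib3 at 11.9 and 11.0 CPM, against 29.1 and 28.3 CPM.

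**Figure D3:**
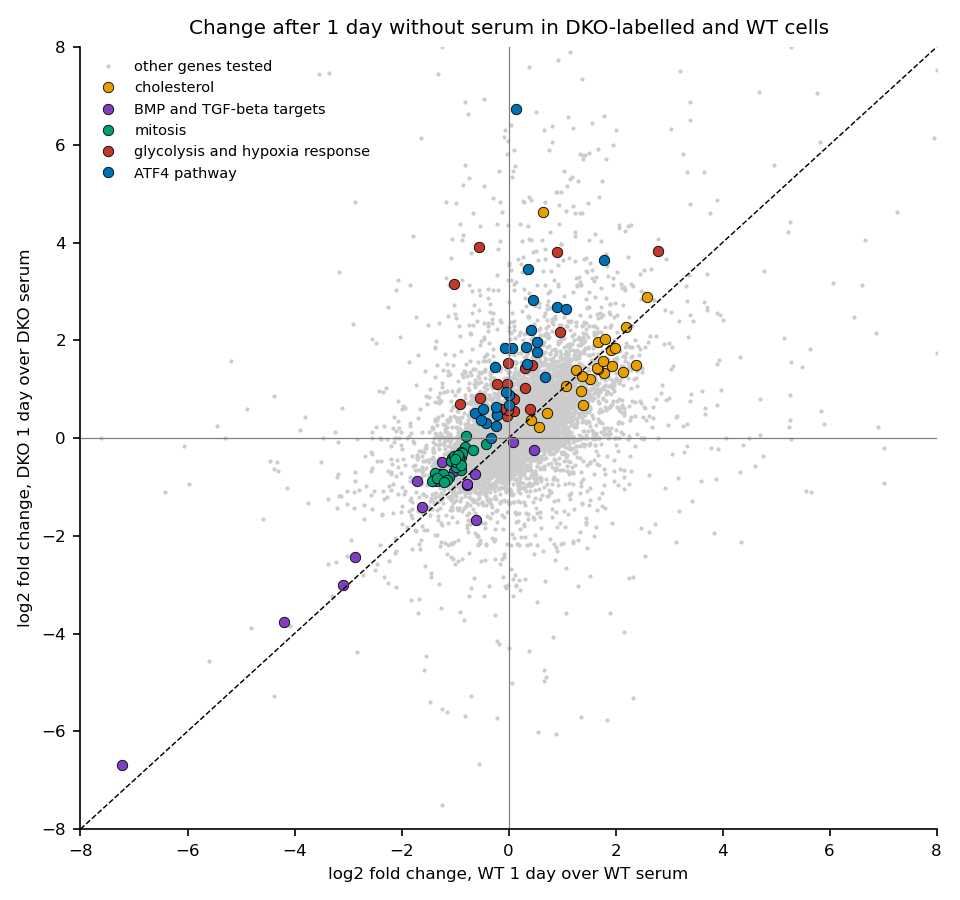
Log2 fold change at 1 day over serum in DKO-labelled cells (vertical) against WT cells (horizontal), 1 point per gene tested, with 5 lists coloured. The dashed line marks equal changes, and genes beyond 8 on either axis are drawn at the edge, at 8. Most cholesterol genes and BMP targets lie near the dashed line, whereas glycolysis and ATF4 genes lie above it, around 0 on the WT axis.

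Mitosis genes fell less in DKO-labelled cells than in WT cells. The difference was called in that direction for 19 of 25 members (15 to 23 over all alternatives), with list medians of -0.47 in DKO-labelled cells and -0.98 in WT cells. Plk1 had 81.2 and 88.7 CPM in WT cells at 1 day and 228 and 231 CPM in WT cells in serum, and its difference was 0.55 ± 0.10 (adjusted p = 0.00221). Ccnb1 differed by 0.57, Bub1b by 0.66, Aurka by 0.49 and Mki67 by 0.64. Replication genes showed 10 such calls of 34, but 2 and 4 without DKO 1 day replicate 1 and 2, 16 without DKO serum replicate 2, 3 and 4 without WT 1 day replicate 1 and 2, and 3 and 1 without WT serum replicate 1 and 2. Cholesterol genes had 8 of 23 members with a lower response in DKO-labelled cells and 1 with a higher one. The 8 became 3 and 2 without DKO 1 day replicate 1 and 2, 3 and 4 without WT 1 day replicate 1 and 2, 5 and 3 without WT serum replicate 1 and 2, and 5 with unstranded counts. The 1 higher became 5 without DKO serum replicate 1, 2 with no filter on low counts or with the replicate block, and 0 without WT serum replicate 1. The BMP list had 1 member called in each direction. Its higher count became 3 without DKO serum replicate 1 or 2, 2 with no filter, and 0 with DESeq2 and without either DKO 1 day library, WT 1 day replicate 1 or either WT serum library. Its lower count became 0 with unstranded counts and without any single DKO 1 day, WT 1 day or WT serum library. Id1, Id2 and Id3 differed by 0.10 ± 0.27, 0.43 ± 0.48 and 0.53 ± 0.84, so their large falls were not told apart from those in WT cells.

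DKO-labelled cells given pUC19 DNA lost serum for 2 days in another experiment, where 7552 of 12655 genes were called (59.7%), 3588 higher (28.4%) and 3964 lower (31.3%). Of the 12388 genes tested in both, 1922 were higher in each, 73.1% of the DKO calls and 54.1% of the pUC19 calls, and 2209 were lower in each, 80.8% and 56.2%. A further 165 genes rose at 1 day in the first experiment and were lower in the pUC19 cells, and 66 did the reverse. Cholesterol genes were called higher in 23 of 23 cases in the pUC19 cells (median 1.52), BMP targets lower in 13 of 15 (median -1.66), replication genes lower in 32 of 34 and mitosis genes lower in 21 of 25. Of glycolysis genes 17 of 21 were higher (median 0.60), though Vegfa, with 225 and 268 CPM at 2 days and 222 and 228 CPM in serum, was not called. The ATF4 list went the other way, with 21 of 26 members called lower at 2 days and 3 higher (median -0.82), and 19 members were called in opposite directions in the 2 experiments. Slc7a11 had 30.1 and 34.8 CPM in pUC19 cells at 2 days and 184 and 173 CPM in pUC19 cells in serum (-2.47 ± 0.08). Trib3 had 13.2 and 15.2 CPM at 2 days and 63.5 and 65.4 CPM in serum (-2.19 ± 0.09). In serum Slc7a11 thus stood at 184 and 173 CPM in the pUC19 cells and at 7.87 and 8.90 CPM in the cells of the first experiment, levels that were scaled separately for each experiment. Cdkn1a and Gdf15 likewise fell in the pUC19 cells, by 1.57 and 1.63, as did Trim66, by 3.01. The experiments differ in time, transfection and reads, and none of these was separated.

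**Figure D4:**
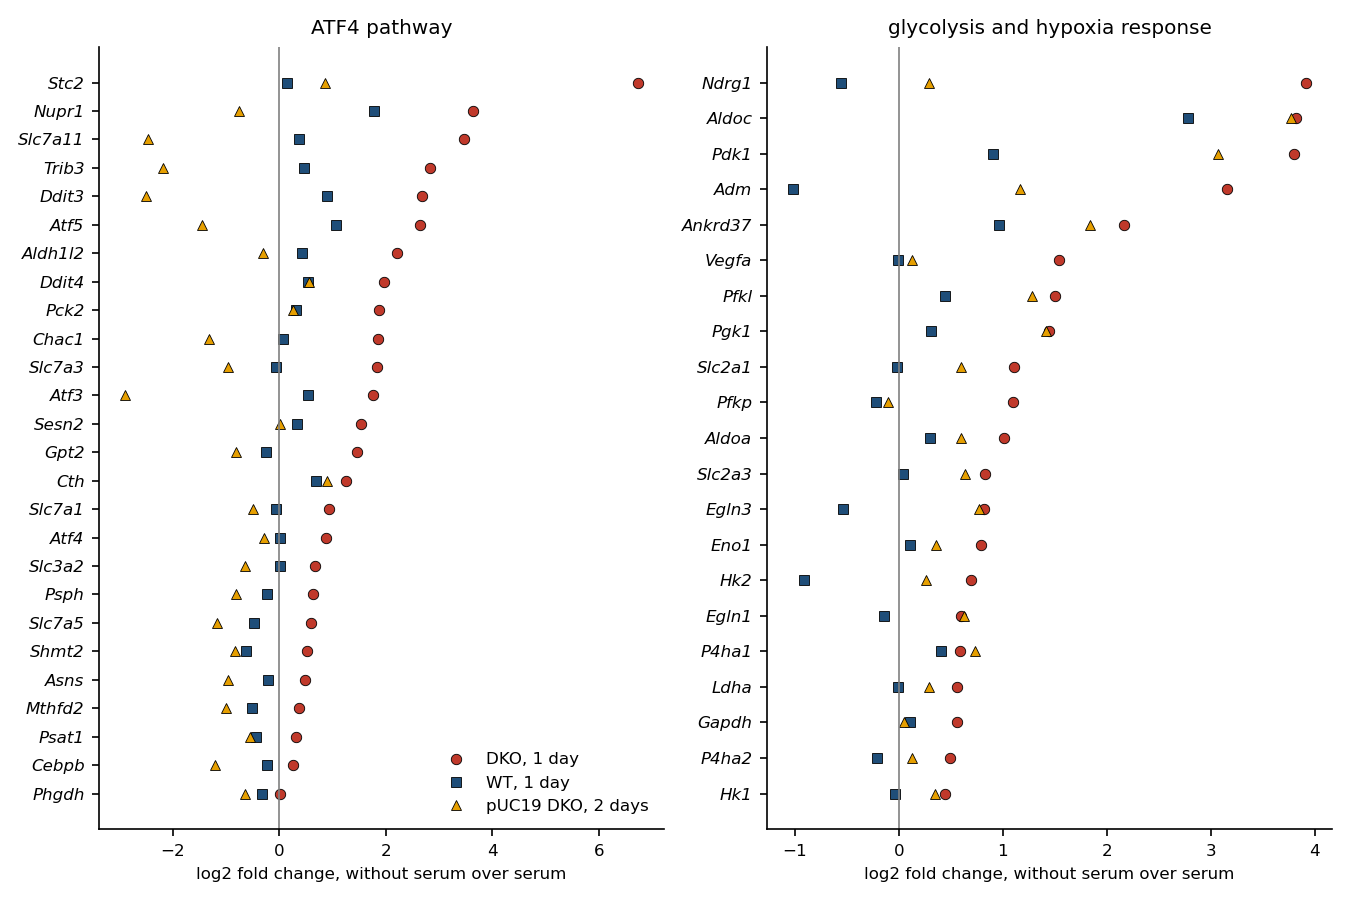
Log2 fold changes without serum over serum for each measured member of the ATF4 list (left) and the glycolysis list (right), in DKO-labelled cells at 1 day (circles), WT cells at 1 day (squares) and pUC19 DKO-labelled cells at 2 days (triangles). ATF4 members are higher at 1 day in DKO-labelled cells and mostly lower in pUC19 cells, and the fitted value of Stc2 rests on 1 read in serum.

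Targets of the actin-regulated factors SRF and YAP fell in DKO-labelled cells. Of 17 measured members of the list of 22, 11 were called lower and none higher, with a median of -0.61. Without Tpm2, which was at or under 3 reads in both groups, the median was -0.56. With no filter on low counts, DESeq2 or the DKO-labelled libraries alone, 1 member was called higher. In WT cells 4 members were called lower and 3 higher, with a median of -0.12. A lower response in DKO-labelled cells than in WT cells was called for 4 members and a higher one for none. That count of 4 fell without WT 1 day replicate 1. Actb had 3252 and 3304 CPM at 1 day, against 5258 and 5328 CPM in serum (-0.69 ± 0.04, adjusted p = 2.92e-08). Cnn2, an actin-binding calponin gene, had 16.3 and 18.4 CPM at 1 day, against 50.9 and 49.8 CPM in serum (-1.54 ± 0.12), and Tagln2 fell by 0.99, Tpm4 by 0.61, Tpm1 by 0.51 and Actg1 by 0.50. Genes that report and damp ERK signalling went up more often than down, with 7 of 13 higher and 1, Etv4, lower. Dusp6, the ERK phosphatase gene, had 663 and 645 CPM at 1 day, against 415 and 393 CPM in serum (0.70 ± 0.06), and Spry1, Spred3, Spry4, Dusp4 and Spry2 rose by 1.08, 0.66, 0.49, 0.47 and 0.38. The call of Etv4 was lost without DKO 1 day replicate 2, and 2 members were called lower without DKO serum replicate 1. Immediate early genes were split, with 7 of 19 measured members higher and 5 lower, beside 19.9% higher and 20.4% lower over all genes tested. The lower count is near that share and fell without DKO 1 day replicate 2. Ier3, Btg2, Atf3 and Fosl2 rose by 1.42, 1.44, 1.75 and 0.84, and Ier5 and Jun fell by 0.67 and 0.40. Egr1 had 118 and 111 CPM at 1 day and 118 and 121 CPM in serum (-0.06 ± 0.07), whereas in WT cells it rose by 1.11. The difference was -1.17 ± 0.10 (adjusted p = 4.86e-06). Fos was not called in DKO-labelled cells (0.14 ± 0.12).

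Of 36 measured neuronal genes, 15 were called higher and 8 lower in DKO-labelled cells, with a median of 0.19. Over all genes tested 19.9% were called higher and 20.4% lower, so the count of lower members is near that share. The summed level of the neuronal list was 5642 and 5686 CPM at 1 day and 4829 and 4526 CPM in serum. WT cells had 17460 and 16940 CPM at 1 day and 11650 and 10920 CPM in serum. Tubb3, the neuronal beta-tubulin gene, had 53.4 and 61.0 CPM at 1 day, against 28.8 and 25.7 CPM in serum (1.07 ± 0.08, adjusted p = 2.31e-07), and WT cells had 861 and 834 CPM, against 474 and 457 CPM. Its rise in DKO-labelled cells was not told apart from that in WT cells (difference 0.20 ± 0.11, adjusted p = 0.276), at a far lower level. Prph, the peripherin gene, had 1075 and 1107 CPM at 1 day, against 671 and 647 CPM in serum (0.73 ± 0.05). The synaptic vesicle calcium sensor gene Syt1 rose by 1.16 and the intermediate filament gene Ina by 0.93. Gap43, a growth cone protein gene, had 19.0 and 17.4 CPM at 1 day, against 36.6 and 42.4 CPM in serum (-1.12 ± 0.09), and the adhesion gene Ncam1 fell by 1.58. Gap43 rose by 0.21 in WT cells, and the difference was -1.33 ± 0.12. In all, 8 members had a lower response in DKO-labelled cells and 3 a higher one, and the 8 became 14 with no filter on low counts and 14 without DKO serum replicate 1, where the 3 became 5. Chgb, a granin gene used to check the cell type, had 15.7 and 21.3 CPM in DKO-labelled cells at 1 day and 2818 and 2955 CPM in WT cells at 1 day, and Nefl, Nefm and Dcx did not pass the filter on low counts.

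Catecholamine genes did not move as a group, with 4 of 14 measured members higher and 4 lower (median 0.08). Over all genes tested 19.9% were called higher and 20.4% lower, so both counts are near those shares. Phox2a, which encodes a transcription factor that specifies noradrenergic neurons, had 106 and 102 CPM at 1 day, against 310 and 349 CPM in serum (-1.66 ± 0.07, adjusted p = 1.15e-09). Chrna3, a nicotinic receptor subunit gene, rose by 0.92, Gata2 fell by 0.41, and Dbh, which makes noradrenaline, fell by 1.45. Th, whose product starts catecholamine synthesis, had 31 reads at 1 day and 0 in serum, at least 11.7-fold higher against 3 reads over the group. It stayed under 1 CPM in every DKO-labelled library, and Slc18a2 and Slc6a2, which encode monoamine transporters, did not pass the filter on low counts, so these defining markers of a catecholaminergic cell were at or near 0.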

How the data were processed

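RNA from CAD cells was sequenced as strand-specific polyA libraries, per the labels. The deposited files hold raw counts of reads per gene, for which the submitters' processing notes name STAR and the mm9 build. Neither the version nor the annotation is given in the sources used here. Column 4, the strand of dUTP libraries, was used after checking that column 3 held 3.18 to 3.61% of reads assigned in the first experiment. Of 37310 gene identifiers 32620 (87.4%) matched a symbol.

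The 8 libraries of the first experiment were fitted together with edgeR 4.0.16 (limma 3.58.1, R 4.3.3, version 1.17.8 of data.table), with 1 mean per group, TMM scaling, filterByExpr (minimum count 10, minimum total count 15) and the two-sided quasi-likelihood test on 4 residual degrees of freedom, adjusted by Benjamini-Hochberg over all genes tested. The 14 libraries of the third experiment were fitted in the same way, on 7. In both fits the test also drew on the spread of all genes, which adds prior degrees of freedom to these. P-values therefore do not rest on the residual degrees of freedom alone. Standard errors were taken from the test statistic. The procedure was also run on counts simulated from the model fitted to these data. That run cannot check the model or the unequal spread of the groups, and its outcome is not reported here. Alternatives were RLE scaling, no filter, the replicate number as a block, unstranded counts, DESeq2 1.42.0, the compared libraries alone and each library left out in turn, where a lone library is assumed to vary like the others. Where a group had 0 reads, bounds used 3 reads over the group. Intervals and bounds cover counting error only.

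The comparison, the 29 gene lists and the tests were chosen with earlier results of these data known. Lists are described by counts and medians, with no test of the list. Named genes are the targeted loci, the 12 largest rises and falls among called genes with a mean of at least 5 CPM and groups that do not overlap, up to 6 members per list by adjusted p, exceptions within a list, a set of marker genes, and the 10 lowest adjusted p for the difference from WT. Atf4, Ddit3, Stc2, Slc2a1, Ankrd37, Cdc20, Chgb, Irf7, Mycn and Bst2, and the motif ACGTG, were chosen after their values were seen. Some genes that this rule names are not reported here. Promoter and miRNA sequences are from RefSeq (GRCm38.p6), and genes with several promoters there were not printed. Figures were drawn with matplotlib 3.10.9 and pandas 2.3.3 in Python 3.11.15.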

Additional observations from a re-analysis of the deposited data

Results flagged for a closer look

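The response of DKO-labelled cells differed from that of WT cells, by a test of the difference itself, for 1325 genes. The lists with the most such calls were the ATF4 list with 25 members, the glycolysis and hypoxia list with 20 and the mitosis list with 19. Among single genes, the difference of log2 fold changes (DKO minus WT) was 5.83 for Fam57b, 4.14 for Kbtbd11, 3.34 for Slc16a3, 3.10 for Slc7a11, 2.38 for Trib3, 2.07 for Bnip3, 1.60 for Hk2, 1.54 for Vegfa, 1.32 for Tpi1 and 1.32 for Pfkp. For each of these genes the response was higher in DKO-labelled cells, which does not mean a higher level. With 2 libraries in each group, no group was large enough to look for single outlying libraries.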

How the results depend on the processing

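The count of genes changed in DKO-labelled cells (5497) stayed within 1.5 times under every alternative run: 5492 with RLE scaling, 5708 with no filter, 5349 with unstranded counts, 5372 with DESeq2, 4483 with the DKO-labelled libraries alone, and 3835 to 6074 without single libraries. For WT cells it ran over 3727 to 4205 without single libraries and was 6729 with the WT libraries alone. For pUC19 cells it ran over 6391 to 7129. The DKO minus WT response at 1 day had 1325 calls, 1356 with RLE scaling, 1780 with no filter, 1242 with unstranded counts, 1503 with DESeq2, and 615 to 2602 without single libraries. Leaving out a library changes the number of samples, and no other cause of that range was tested. Of the counts over lists in DKO-labelled cells, 538 stayed within 1.5 times and 42 did not. Of the values of named genes there, 1847 kept direction and call, 25 lost the call, 9 gained it and 5 reversed, none of them called: Cd68 (-1.485 to 0.299 without single libraries; 0.282 without DKO 1 day replicate 1 and 0.299 without DKO serum replicate 2), Thy1 (0 to 4.95) and Egr1 (-0.119 to 0.007), both lowest in size without DKO 1 day replicate 2, and Nr1h3 (-0.331 to 1.055), lowest without DKO serum replicate 2.

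Same-numbered replicates did not deviate together (correlations of 0.046, 0.017 and 0.004), so the numbers were not taken as pairs. With the replicate block the counts were 5849 for DKO-labelled cells, 5869 for WT cells, 1751 for their difference and 7721 for pUC19 cells. Depth limits genes of a few reads, such as Th and Stc2.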

Other observations

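Circadian clock genes were often higher in DKO-labelled cells at 1 day, with 8 of 15 members called higher and 1, Nr1d2, lower (2 without DKO serum replicate 1), and a median log2 fold change of 0.56. Bhlhe40, a repressor that also answers to hypoxia, had 105 and 99.7 CPM at 1 day, against 18.7 and 13.0 CPM in serum (2.67 ± 0.13). Ciart had 32.6 and 29.4 CPM at 1 day, against 4.56 and 2.81 CPM in serum (3.05 ± 0.21), and Bhlhe41, Dbp and Per3 rose by 1.71, 1.49 and 1.27. No library at 1 day overlapped those in serum for these genes. The E-box CACGTG was in 5 of 13 promoters of the list (38.5%) and in 11.7% of tested genes with a promoter, and the FoxO site GTAAACA in 2 of 14 FoxO list promoters (14.3%) and in 3.03%.

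Interferon-related genes were called higher in 11 of 23 measured cases and lower in 1, Bst2 (-0.33, adjusted p = 0.0461). None was lower with no filter on low counts, unstranded counts, DESeq2 or the DKO-labelled libraries alone, nor without DKO 1 day replicate 1 or DKO serum replicate 1. The median was 0.46. H2-K1, a class I antigen-presenting molecule, rose by 1.22, Stat2 by 0.95 and Irf1 by 0.81, while Irf7 had 20 reads at 1 day and 0 in serum, at least 7.52-fold higher. Lysosome and autophagy genes were called higher in 15 of 27 cases and lower in 3, with a median of 0.33. Npc2, a lysosomal cholesterol carrier, had 228 and 240 CPM at 1 day, against 128 and 135 CPM in serum (0.83 ± 0.07), while Map1lc3b rose by 0.65 and Sqstm1 by 0.52.

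Hormone-responsive genes were split, with 3 of 9 measured members higher and 5 lower, beside 19.9% higher and 20.4% lower over all genes tested. Hr, a thyroid hormone target, had 0.170 and 0.127 CPM at 1 day, against 3.38 and 2.85 CPM in serum (-4.37 ± 0.36), while the glucocorticoid targets Tsc22d3 and Fkbp5 rose by 1.22 and fell by 0.51. Iron genes had 2 of 9 members higher and 3 lower. Tfrc, the transferrin receptor gene, had 655 and 653 CPM at 1 day, against 380 and 493 CPM in serum (0.58 ± 0.09). The higher count became 1 without either 1 day library and 4 without DKO serum replicate 2, and the lower count 1 without DKO 1 day replicate 1. Targets of the sterol sensor LXR had 2 of 7 higher, Abca1 (2.91) and Lpcat3 (0.73), and 2 lower. The lower count became 1 with the DKO-labelled libraries alone, and it also depended on single libraries.

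Receptor tyrosine kinase genes had 6 of 13 measured members higher, Ddr2 (0.96) and Ret (0.28) among them, and 1 lower, Fgfr3 (-0.88), joined by another without DKO serum replicate 2. Axon guidance genes had 5 of 27 higher and 7 lower, near the shares over all genes tested, 19.9% higher and 20.4% lower. The netrin receptors Neo1 and Unc5b rose by 0.91 and fell by 0.94. The 7 became 3 without DKO 1 day replicate 2, and the 5 became 8 without DKO serum replicate 1. Matrix genes had 4 of 20 higher and 2 lower, near or below the shares over all genes tested. Fn1, fibronectin, had 1791 and 1743 CPM at 1 day, against 1176 and 735 CPM in serum (0.89 ± 0.15), and Sparc had 463 and 439 CPM, against 799 and 845 CPM (-0.86 ± 0.06). The 4 became 1 without DKO 1 day replicate 1, and the 2 became 1 without DKO 1 day replicate 2 or DKO serum replicate 1 and 6 without DKO serum replicate 2.

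Markers of other cell types were low. Summed levels at 1 day and in serum were 8.14 and 7.06 CPM, against 5.07 and 4.56 CPM, for 5 measured glial genes, and 9.91 and 10.5 CPM, against 8.68 and 8.01 CPM, for 4 fibroblast genes. For endothelium and muscle 2 genes gave 22.8 and 21.8 CPM, against 14.9 and 10.3 CPM, and Cd68 of the immune list gave 0.170 and 0.602 CPM, against 0.319 and 0.677 CPM. Slc1a2 (9 reads at 1 day and 0 in serum), Pecam1 and Des (15 reads and 0) were called higher. With the DKO-labelled libraries alone, the glial list had 0 members called higher and the endothelium and muscle list 1. The call of Slc1a2 was lost without DKO 1 day replicate 2 or DKO serum replicate 1, and that of Des without DKO 1 day replicate 1 or either DKO serum library. No fibroblast gene was called, but 2 were called higher without DKO serum replicate 2, Col1a1 among them (1.91, adjusted p = 0.0287), 1 without DKO serum replicate 1 (Dcn, 1.28, adjusted p = 0.0155), and 1 each with no filter (Dcn) and unstranded counts (Col1a1). Ptprc, Sox10, Pdgfra, Cdh5 and Myod1 did not pass the filter on low counts. The part of these markers in the results was not tested.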
